A study of Mus musculus with 9 samples.

Results

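The small proline-rich (Sprr) genes described here are Sprr1a, Sprr1b, Sprr2a1, Sprr2a2, Sprr2a3, Sprr2b and Sprr2d, the 7 rows with these symbols among the 55341 genes of each count file. They were chosen by symbol, with earlier results of these data known, and the sum over the 3 Sprr2a copies was followed beside them. The libraries came from crypts of the mouse small intestine, the pockets of epithelium that hold the stem cells, in a study of the loss of PCGF6, a Polycomb-group protein of a repressive complex that also contains MGA and MAX. All mice were males of the C57BL/6 background aged 8 to 12 weeks, and each library was made from 2 ng of polyadenylated RNA by Smart-seq2.

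Deletion was driven in separate ways. In the AhCre mice, Cre is under an aryl hydrocarbon-responsive promoter that also acts outside the gut, and was switched on with beta-naphthoflavone (BNF). This gave 2 Pcgf6 wild-type libraries (AhCre WT) and 2 knockout libraries (AhCre KO), all after BNF. In the Villin mice, CreERT2 is under the promoter of Villin, a gene of the gut epithelium, and was switched on with tamoxifen (TAM). This gave 3 Villin WT and 2 Villin KO libraries, all after TAM. Sample titles put collection 15 days after induction, while another label and the design text give 7 days. A description line of the Villin libraries names BNF in place of TAM. Driver and inducer cannot be told apart, and nothing in the labels says whether libraries of a group came from separate animals, so the p-values below measure the spread between these libraries, which may be technical.

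SPRR proteins are short and rich in proline, and transglutaminases cross-link them into the cornified envelope, the tough shell of squamous epithelial cells. Their genes lie together in the epidermal differentiation complex. In the gut, Sprr2a is induced by microbes and by interleukins 4 and 13 through STAT6 during worm infection, and its protein is secreted and kills Gram-positive bacteria. Sprr1a is known as a gene of regenerating and stressed cells.

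All 17 Sprr genes of the mouse annotation (GENCODE M21, GRCm38) lay on chromosome 3 between positions 92215799 and 92500493. Sprr2a1 (chr3:92215799-92221911), Sprr2a2 (chr3:92215920-92256724) and Sprr2a3 (chr3:92285417-92291405) were neighbours on the plus strand, followed by Sprr2b (chr3:92316620-92318085) and Sprr2d (chr3:92339140-92340873). Sprr1b (chr3:92436809-92438789) and Sprr1a (chr3:92483952-92485895) lay on the minus strand. The annotated span of Sprr2a2 contained nearly all of Sprr2a1, and their exons shared 43 bases.

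The coding sequences of the Sprr2a copies decide how far the rows can be read apart, so the stretch that holds every difference between them is shown, from coding base 53 to coding base 202 with the differing bases in capitals. Positions are counted from 1 at the A of the start codon, and Sprr2a2 reads as Sprr2a1 over this stretch (GRCm38, plus strand, Sprr2a1 at chr3:92219144-92219293 and Sprr2a3 at chr3:92288640-92288789).
Sprr2a1: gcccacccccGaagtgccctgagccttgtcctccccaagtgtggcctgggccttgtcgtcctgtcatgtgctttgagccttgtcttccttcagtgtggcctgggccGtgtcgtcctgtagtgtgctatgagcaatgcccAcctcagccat
Sprr2a3: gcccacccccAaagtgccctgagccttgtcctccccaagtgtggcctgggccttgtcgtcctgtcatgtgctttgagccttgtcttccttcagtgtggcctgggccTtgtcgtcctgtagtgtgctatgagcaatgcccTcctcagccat
Sprr2a1 and Sprr2a2 had identical coding sequences of 249 bases. Sprr2a3 differed from both at 3 bases, G63A, G159T and A192T with the base of Sprr2a1 first, which left 98.8% identity. Over whole transcripts, 38.9% of all 50-base windows of Sprr2a3 occurred in no other annotated gene, against 3.72% for Sprr2a1 and 3.53% for Sprr2a2. With windows of 100 bases the shares were 63.8%, 7.51% and 7.19%. Windows outside the Sprr2a copies hardly mattered, since 97.6% of the 50-base windows of Sprr2a3 were found in no gene other than the copies. Sprr2b and Sprr2d were unique in 85.9% and 95.7% of their 50-base windows, and Sprr1a and Sprr1b in 100% of theirs. Counts of Sprr2a1 and Sprr2a2 are therefore uncertain, and the sum of the copies is the safer value.

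The windows before the transcription starts (RefSeq, GRCm38.p6) are shown for Sprr2a3, which held most of the reads, and for Sprr2b and Sprr1a, the next members by count. Each runs from 250 to 51 bases before the start. Capitals mark the searched motifs, which were TTC and GAA with 4 bases of any kind between them (the STAT6 type), TGANTCA (AP-1), ATGCAAAT (octamer) and CACGTG (the E-box of MGA and MAX), each on both strands. The windows lie at chr3:92285054-92285253 (plus strand), chr3:92316455-92316654 (plus strand) and chr3:92485932-92486131 (minus strand).
Sprr2a3: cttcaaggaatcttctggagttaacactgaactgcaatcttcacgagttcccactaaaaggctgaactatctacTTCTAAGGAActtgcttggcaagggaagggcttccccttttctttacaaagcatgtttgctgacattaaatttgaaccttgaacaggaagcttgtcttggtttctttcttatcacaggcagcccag
Sprr2b: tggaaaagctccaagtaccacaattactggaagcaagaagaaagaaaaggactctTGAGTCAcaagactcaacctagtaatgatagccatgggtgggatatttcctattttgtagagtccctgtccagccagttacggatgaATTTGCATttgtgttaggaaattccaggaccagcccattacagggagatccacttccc
Sprr1a: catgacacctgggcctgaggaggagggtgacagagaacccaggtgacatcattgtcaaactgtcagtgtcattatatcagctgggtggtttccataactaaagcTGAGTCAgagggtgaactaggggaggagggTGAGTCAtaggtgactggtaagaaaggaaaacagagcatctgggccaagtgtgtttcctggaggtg
The 3 Sprr2a windows, and no other of the 14 Sprr windows of 300 bases in the promoter table, held the STAT6 type, once each. It began 176 bases before the start of Sprr2a3 and 204 bases before those of Sprr2a1 and Sprr2a2. The Sprr2a1 and Sprr2a2 windows were identical, and 272 bases of them recurred in the Sprr2a3 window without a difference. The 7 other Sprr2 windows all held both TGANTCA and ATGCAAAT, and the Sprr2a windows held neither. Sprr1a held TGANTCA at 2 places and Sprr1b at 1. No Sprr window held CACGTG, which says only that these letters were not in it. Of 32851 promoter windows in the table, 6.95% held the STAT6 type, 7.81% TGANTCA, 1.74% ATGCAAAT and 7.15% CACGTG, and 0.198% held TGANTCA and ATGCAAAT together. A match is a description of the letters and not of binding.

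The libraries held between 6455098 and 12377921 counts, with 22058 to 38835 genes detected. Values are given as CPM, the count scaled by the library's TMM-corrected total, and 3 counts, taken as the floor of detection, corresponded to 0.194 to 0.615 CPM in a library. Pcgf6 itself stood at 14.1 and 10.1 CPM in AhCre WT and at 7.19 and 5.90 CPM in AhCre KO. Villin WT libraries held 10.8, 12.7 and 9.44 CPM, and Villin KO libraries 3.07 and 2.47 CPM. KO libraries were below WT libraries in both drivers. The log2 fold change was -1.99 (SE 0.42, edgeR adjusted p = 0.0220) in Villin and -0.89 (SE 0.40, adjusted p = 1) in AhCre. In AhCre the fall passed the threshold of 0.05 with AhCre libraries alone (-0.88, edgeR adjusted p = 0.0357) and by limma-voom (-0.88, adjusted p = 0.0391). The Villin call was lost with limma-voom (adjusted p = 0.214), with Villin libraries alone (0.137), and when either AhCre WT library (0.0550 and 0.0526), Villin WT 1 (0.0513) or Villin KO 1 (0.0748) was left out. The labels do not name the deleted exons, so the remaining reads do not measure how complete the deletion was.

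Sprr2a was the member that rose. Summed over its copies it went from 13.4 and 15.1 CPM in AhCre WT to 74.1 and 89.9 CPM in AhCre KO. Villin WT libraries held 83.0, 22.5 and 75.3 CPM, against 1807 and 285 CPM in Villin KO. Every KO library lay above every WT library of its driver. The AhCre KO libraries, however, overlapped the range of Villin WT, with 74.1 CPM inside it and 89.9 CPM just above it. Pairs of AhCre libraries were close, at 1.12-fold and 1.21-fold between the highest and the lowest, whereas Villin WT libraries spread over 3.70-fold and Villin KO libraries over 6.34-fold.

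**Figure D1:**
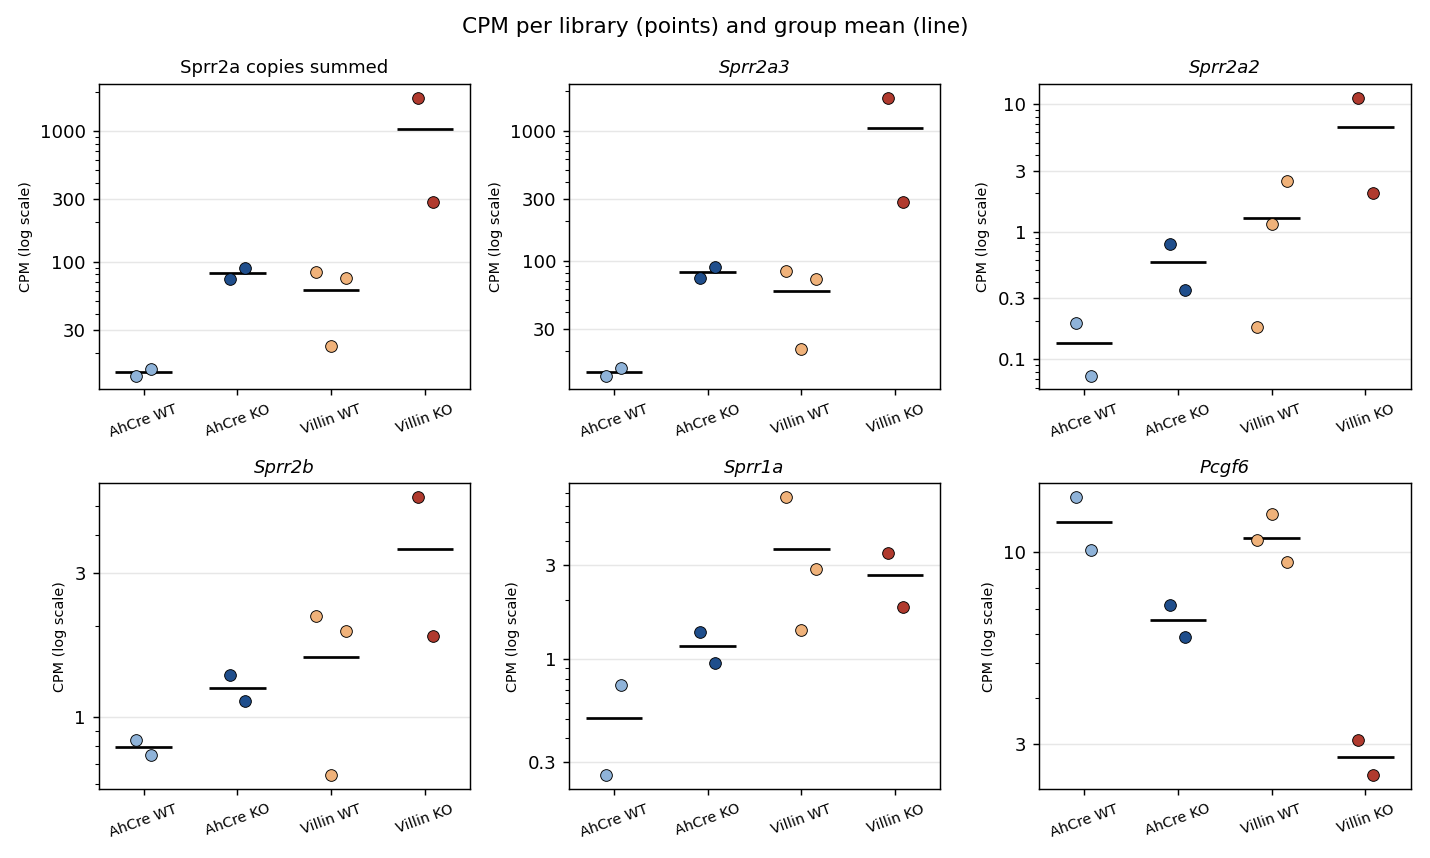
CPM on a log scale for the summed Sprr2a copies, 4 Sprr members with enough counts to test and Pcgf6, with 1 point per library and a line at the group mean. For summed Sprr2a the 2 KO points of each driver lie above its WT points, while the Sprr1a points of the Villin groups are interleaved.

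In Villin the summed Sprr2a copies averaged 60.3 ± 33.0 CPM in WT (SD, n = 3) and 1046 ± 1076 CPM in KO (SD, n = 2). The log2 fold change was 4.12 (SE 0.67, edgeR adjusted p = 0.00920, 16249 features tested), a 17.4-fold difference. Genes called higher in this comparison made up 3.33% of all 16250 genes tested. They numbered 541, against 468 lower; with the size factors of DESeq2 in the same test these were 704 and 388, and the median over all genes moved from -0.18 to -0.08. In AhCre the averages were 14.3 ± 1.16 CPM in WT and 82.0 ± 11.2 CPM in KO (SD, n = 2 each), a log2 fold change of 2.52 (SE 0.74) or 5.75-fold. This did not pass the threshold in the fit that shares 1 estimate of spread over all 9 libraries (edgeR adjusted p = 0.640). That fit called 1 gene higher in AhCre, 0.00615% of those tested.

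The AhCre result depended on the fit. With the 4 AhCre libraries alone the log2 fold change was 2.55 and edgeR's adjusted p was 8.49e-08, and 3.62% of the 16257 genes tested there were called higher. DESeq2 on all libraries gave 2.51 with an adjusted p of 0.0300, and limma-voom with sample weights gave 2.52 with 0.000101. Across all alternatives that kept every library, the AhCre value stayed between 2.44 and 2.56 on the log2 scale, with 4 of 9 passing the threshold.

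The mean of both KO effects for summed Sprr2a was 3.32 on the log2 scale (SE 0.51, edgeR adjusted p = 0.00951), where 0.972% of genes were called higher. The AhCre effect minus the Villin effect was -1.60 (SE 0.95, adjusted p = 0.429). The test of the difference called 0.0738% of genes, and summed Sprr2a was not among them. Without Villin KO 1, the library with the highest Sprr2a, the Villin effect fell to 2.26 (adjusted p = 0.0710) and the difference between drivers turned to 0.27. Without Villin WT 1 the Villin effect was 4.42 and its adjusted p was 0.0501.

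**Figure D2:**
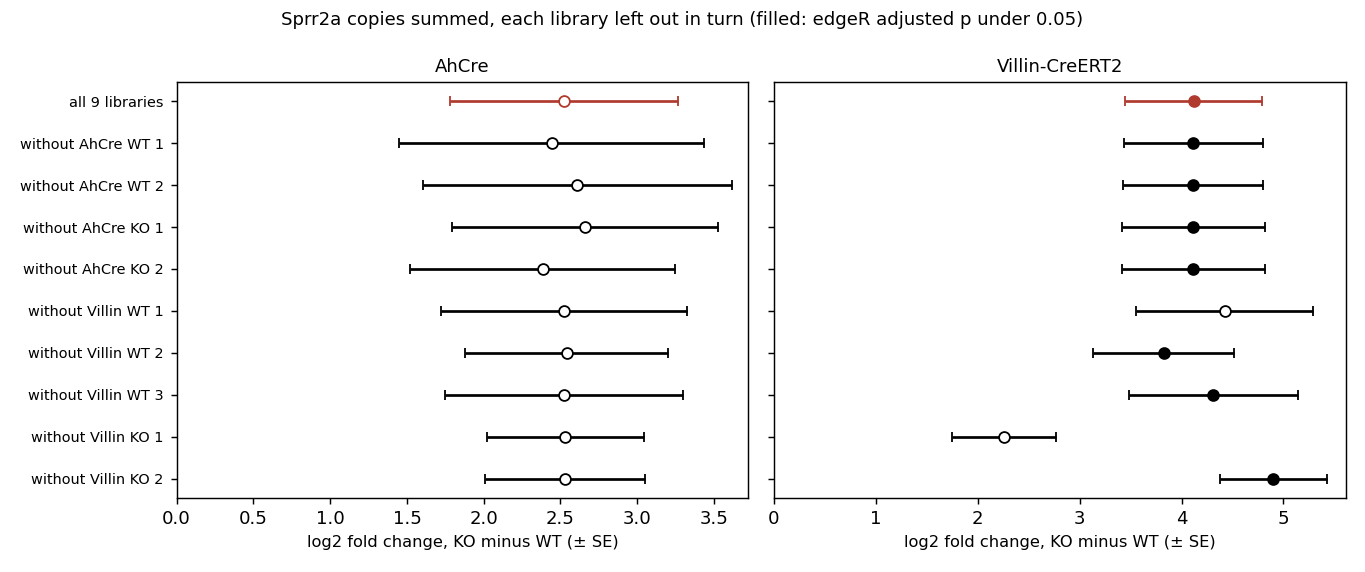
Log2 fold change (KO minus WT, ± SE) of the summed Sprr2a copies with all 9 libraries and with each left out in turn, filled where the edgeR adjusted p was under 0.05. All values are above 0, and the Villin value ranges from 2.26 without Villin KO 1 to 4.90 without Villin KO 2.

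The reads of this group lay almost wholly in the Sprr2a3 row. AhCre WT libraries held 202 and 200 Sprr2a3 counts and AhCre KO libraries 904 and 1031. Villin WT libraries held 459, 163 and 371, and the KO libraries of that driver 8756 and 1830. That was 93.1% to 99.4% of the summed count of a library. Sprr2a3 alone gave a log2 fold change of 4.16 in Villin (SE 0.68, edgeR adjusted p = 0.00939) and 2.54 in AhCre (SE 0.75, adjusted p = 0.655). Ranked by log2 fold change among the 16250 genes tested, it stood at place 47 in Villin and 78 in AhCre.

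Sprr2a2 was low. AhCre WT libraries had 3 and 1 counts and AhCre KO libraries 10 and 4. Villin WT libraries had 1, 9 and 13, and the KO libraries of that driver 55 and 13. KO lay above WT in AhCre, and the Villin groups overlapped by CPM (2.51 in the highest WT library and 2.01 in the lower KO library). The log2 fold change was 2.36 in Villin (SE 0.84, edgeR adjusted p = 0.105) and 1.98 in AhCre (SE 1.22, adjusted p = 1), neither past the threshold. In Villin it passed with no filter on low counts (2.32, adjusted p = 0.0170) and without Villin KO 2 (3.14, adjusted p = 0.0262), and without Villin KO 1 it was 0.69. Sprr2a1 never exceeded 9 counts in a library and did not pass the filter on low counts. Its sum was 4 counts in each AhCre group, 12 in Villin WT libraries and 14 in those of Villin KO. The ratio of KO to WT in Villin was 1.90 with an exact 95% interval of 0.818 to 4.51, which covers counting error only.

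Unique sequence differs between the copies, and so do the counts set against it. Per 100 windows of 50 bases found in no other gene, Sprr2a3 had 1262 counts over all 9 libraries, Sprr2a2 109.0 and Sprr2a1 30.9. With windows of 100 bases the values were 784.0, 54.5 and 15.6. The order of the copies was the same on both scales. The read length and the treatment of reads that match several places are not stated in any label, so these are descriptions of the rows and not of the copies' transcription.

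**Figure D3:**
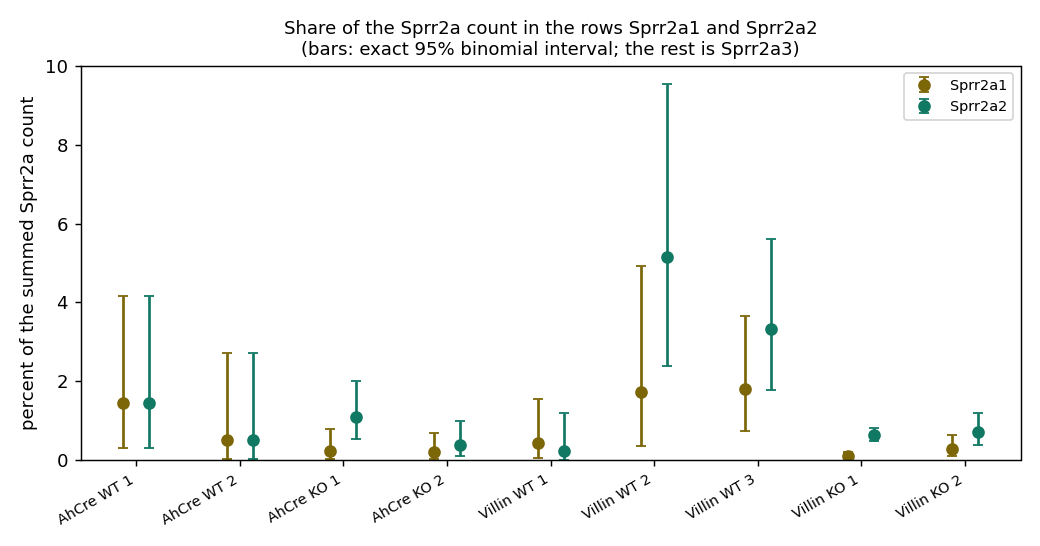
Percent of the summed Sprr2a count that fell in the Sprr2a1 and Sprr2a2 rows of each library, with exact 95% binomial intervals that cover counting error only. Sprr2a2 ranges from 0.217% to 5.14% and Sprr2a1 from 0.102% to 1.79%, and the rest of each library's count is Sprr2a3.

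Sprr2b, the next gene along the cluster, encodes another envelope protein of the SPRR2 class and was present at a low level. AhCre WT libraries held 0.839 and 0.746 CPM, against 1.37 and 1.13 CPM in AhCre KO. Villin WT libraries held 2.16, 0.641 and 1.93 CPM of Sprr2b, against 5.33 and 1.85 CPM in Villin KO. AhCre KO lay above AhCre WT, and in Villin the lower KO library fell inside the WT range. The log2 fold change was 0.65 in AhCre (SE 0.70, edgeR adjusted p = 1) and 1.20 in Villin (SE 0.64, adjusted p = 0.256), and without Villin KO 1 the Villin value dropped to 0.29. The ratios of group sums were 1.58 in AhCre (exact 95% interval 0.886 to 2.84) and 2.30 in Villin (1.37 to 3.91). These intervals cover counting error only and not the spread between libraries. Villin KO 1 alone held 26 of the 38 counts in Villin KO.

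Sprr2d had 2 counts in AhCre WT 1 and 0 in each of the other 8 libraries. Of the other 10 Sprr rows, which include Sprr3, Sprr4 and the remaining Sprr2 genes, no library held more than 2 counts and Sprr2e had none. None of these rows could be tested. Along the cluster, the Sprr counts thus lay in the Sprr2a rows and, far fewer, in Sprr2b (118 over all libraries) and Sprr1a (134). The Sprr2 genes from Sprr2d onward were at or near 0 in WT and KO alike at this depth.

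Sprr1a, the member tied to regeneration and stress, showed no shared direction. It had 4 and 10 counts in AhCre WT and 17 and 11 in AhCre KO, which is 0.258 and 0.746 CPM against 1.37 and 0.954 CPM. Villin WT libraries had 37, 11 and 15 counts (6.65, 1.41 and 2.89 CPM), against 17 and 12 (3.48 and 1.85 CPM) in Villin KO. KO was above WT in AhCre and lay within the WT range in Villin. The log2 fold changes were 1.22 in AhCre (SE 0.82, edgeR adjusted p = 1) and -0.45 in Villin (SE 0.70, adjusted p = 0.718), with a difference of 1.67 (SE 1.07, adjusted p = 0.464). Without Villin WT 1, which had the highest level, the Villin value was 0.32.

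Sprr1b, the paralog of Sprr1a in squamous tissue, had at most 2 counts in any library. Each AhCre group summed to 3 counts, Villin WT to 1 and Villin KO to 0. All library values lay at or under the floor, so no fold is given.

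Of the 7 members, 4 passed the filter on low counts, namely Sprr1a, Sprr2a2, Sprr2a3 and Sprr2b. Among these, 1 was called higher in Villin (background 3.33%), 1 on the mean of both effects (background 0.972%) and none in AhCre (background 0.00615%), and in each case the called row was Sprr2a3. At an unadjusted p under 0.05 AhCre had 294 genes higher and 280 lower, Sprr2a3 among the higher, and DESeq2 called 73 genes there. Of all 7 members, these 4 had both KO libraries above both WT libraries in AhCre, with Sprr2a2 at or under the floor in AhCre WT. There 23.4% of genes tested had KO above WT in this way. Only Sprr2a3 did so in Villin, where 14.5% of genes did, and only it in both drivers, as 3.42% of genes did.

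**Figure D4:**
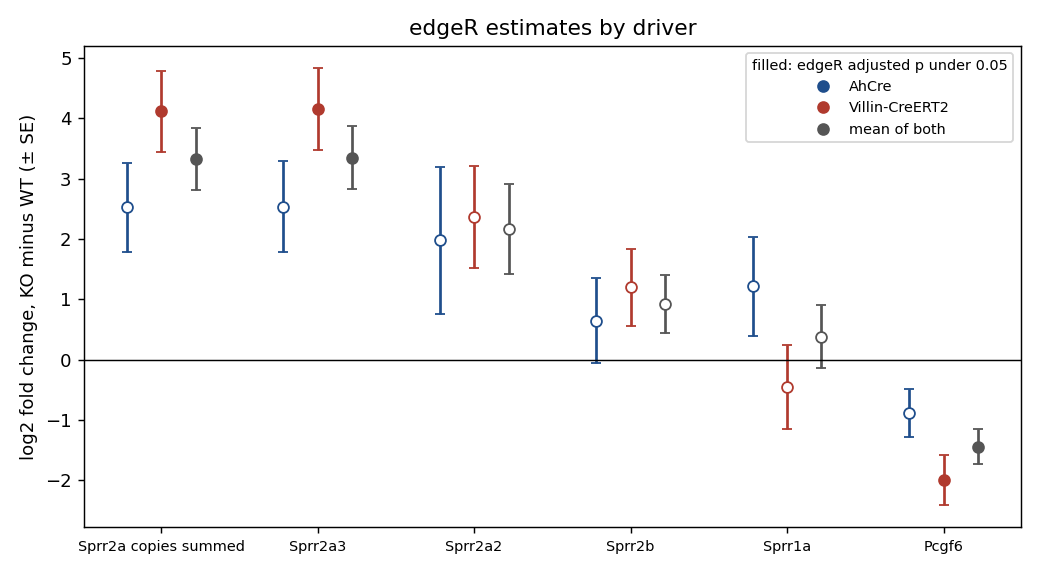
Log2 fold changes (KO minus WT, ± SE) from edgeR for the tested Sprr members, the summed copies and Pcgf6, in AhCre, in Villin and as the mean of both, filled where the adjusted p was under 0.05. Sprr2a3 and the sum lie highest, and Sprr1a lies on both sides of 0.

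CPM per kilobase of exon corrects for exon length but not for sequence shared between genes. Unique 50-base windows made up 38.9% of those of Sprr2a3, 85.9% of those of Sprr2b and 100% of those of Sprr1a. The treatment of reads with several matches is not stated, so levels of Sprr2a rows and other genes are only roughly comparable. On this scale Sprr2a3 averaged 4.85 CPM per kb in AhCre WT, against 28.2 in AhCre KO. Villin WT averaged 20.2 and Villin KO 360.1 CPM per kb. Sprr2b averaged 1.01, 1.60, 2.01 and 4.58 CPM per kb in the same order of groups. Sprr1a averaged 0.623, 1.45, 4.53 and 3.31 CPM per kb. The Sprr2a3 library ranges lay above those of Sprr2b and Sprr1a in AhCre WT, AhCre KO and Villin KO. In Villin WT its lowest library, at 7.25 CPM per kb, was below the highest Sprr1a library, at 8.25. The order of Sprr2b and Sprr1a did not hold beyond their spread in either KO group or in Villin WT. Sprr2a2 averaged 0.0461, 0.199, 0.440 and 2.28 CPM per kb, and Sprr1b, Sprr2a1 and Sprr2d at most 0.436 in any group.

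The stretch of chromosome 3 between Sprr2a1 and Sprr4 held 24 annotated genes, of which 7 were no Sprr gene. Of these 24, 5 were tested: the 4 Sprr members above and the predicted gene Gm9774, named because it was the only other tested, which was known after its values were seen. Sprr2a3 alone was called, in Villin and on the mean. Gm9774 had a log2 fold change of -0.04 in Villin (SE 0.80) and 0.61 in AhCre (SE 0.75).

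The other genes of the cornified envelope were next compared in the fit that shares its spread over all libraries, and then in the alternatives under which Sprr2a passed in AhCre. The list holds envelope proteins such as loricrin and involucrin, desmosomal proteins and transglutaminases. For this list and those below, the shared fit called 3.33% of all genes higher in Villin, 0.972% on the mean and 0.00615% in AhCre. With AhCre libraries alone edgeR called 3.62% higher in AhCre. Over all genes, limma-voom called 518 higher and 393 lower in AhCre, and 132 higher and 6 lower in Villin. Of the 36 envelope genes 12 were tested, and none was called in AhCre, in Villin or on the mean by the shared edgeR fit or by DESeq2. With AhCre libraries alone edgeR called 1, Evpl (envoplakin, log2 fold change 0.73, adjusted p = 0.0235), and limma-voom called another in AhCre, Tchh (trichohyalin, 1.51, adjusted p = 0.0337), both named after their values were seen. When Villin WT 2 or Villin KO 2 was left out, 1 was called in Villin. At an unadjusted p under 0.05, 2 were higher in Villin and 1 on the mean. The median log2 fold change was 0.36 in Villin and 0.11 in AhCre, beside -0.18 and -0.0048 over all genes tested. Jup, the junction protein plakoglobin, averaged 134.8 CPM in Villin WT and 227.2 in Villin KO (adjusted p = 0.158), and Sfn, the 14-3-3 sigma protein of stratified epithelia, 188.1 and 271.2 CPM (adjusted p = 0.289).

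Markers of stratified squamous epithelium, the tissue in which SPRR proteins are best known, were low throughout. Their 12 genes summed to 15.7 to 26.2 CPM in WT libraries and 16.2 to 24.3 CPM in KO libraries, with overlapping ranges. In Villin KO 6 of the 12 had 0 counts. Of the 12, 3 passed the filter and none was called by the shared fit, by DESeq2, by limma-voom or with 1 driver alone, or at an unadjusted p under 0.05 in the shared fit. Markers of simple intestinal epithelium, such as Epcam and Krt20, summed to 8015 to 26340 CPM and were abundant in every library. In AhCre the shared fit called 0 of these markers. Krt18 was called higher there with AhCre libraries alone (log2 fold change 1.06, edgeR adjusted p = 0.000141) and by limma-voom (1.04, adjusted p = 0.00915). Of 11, 2 rose in Villin (Krt20, log2 fold change 1.33, and Krt18, 1.76, adjusted p = 0.0318 and 0.0405), and none did with Villin libraries alone, with limma-voom or when Villin KO 1 was left out.

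The S100 genes of the neighbourhood, small calcium-binding proteins, had 10 members tested. S100a9, a gene of neutrophils and inflamed epithelium, rose in Villin (log2 fold change 4.43, SE 1.06, edgeR adjusted p = 0.0334). It went from a mean of 0.304 CPM in WT, under the floor, to 6.19 CPM in KO. It averaged 3.39 CPM in AhCre WT and 1.55 CPM in AhCre KO (log2 fold change -1.12, adjusted p = 1). It was the only S100 gene called in Villin by the shared fit. DESeq2 called 3 of the list in Villin, and edgeR with its size factors 2, while limma-voom and Villin libraries alone called 0 of it. In AhCre the shared fit and DESeq2 called 0, with 0 at an unadjusted p under 0.05. With AhCre libraries alone, and by limma-voom, S100a6, S100a11, S100a13 and S100a14 were higher in KO, with log2 fold changes of 1.03, 1.03, 0.99 and 0.90 in the former.

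Genes of the interleukin 4 and 13 response had 21 of 25 members tested. The list includes the receptors, STAT6 signalling, epithelial targets and the cytokines Il25 and Il33. It was chosen with earlier results of these data known and holds Pla2g4c and Gsdmc genes, so its counts are no independent support. Of the 21 genes, 10 rose in Villin, 7 on the mean and 1 in AhCre, and none fell. The shares of all genes tested that were called higher were 3.33%, 0.972% and 0.00615%. In AhCre 4 rose by DESeq2, 10 by limma-voom, and 9 with AhCre libraries alone, where 1 fell. In Villin 6 rose with Villin libraries alone and 5 by limma-voom. The median log2 fold changes were 1.67, 1.11 and 0.79, beside -0.18, -0.09 and -0.0048 over all genes. Pla2g4c, a phospholipase, rose in both drivers, from 1.80 to 491.4 CPM in AhCre (log2 fold change 8.07, adjusted p = 0.000517) and from 1.76 to 1048 CPM in Villin (9.24, adjusted p = 2.65e-05). Gsdmc4, a gasdermin gene, went from 48.0 to 400.2 CPM in Villin (3.06, adjusted p = 0.00774) and from 68.9 to 480.2 CPM in AhCre (2.80, adjusted p = 0.250). Gsdmc3 gave 2.54 in Villin (adjusted p = 0.0282) and 2.96 in AhCre (adjusted p = 0.361), and its near-identical relatives make the reads of single Gsdmc rows uncertain. Il33, an alarmin, rose in Villin from 19.9 to 135.2 CPM (adjusted p = 0.00482) and stood at 6.50 and 6.66 CPM in AhCre WT and KO. In Villin 3 of the 21 genes rose when Villin KO 1 was left out.

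Transcription factors listed as regulators of Sprr genes, of the AP-1, KLF and ETS families and others such as Hif1a, had 19 members tested. Fos (log2 fold change 2.18, adjusted p = 0.00999), Atf3 (1.85, adjusted p = 0.0438), both of the AP-1 network, and Klf6 (1.18, adjusted p = 0.0434) rose in Villin. In AhCre none was called, and Fos and Atf3 had log2 fold changes of -0.97 and -0.98 (adjusted p = 1 for each). At an unadjusted p under 0.05, AhCre had 0 higher and 1 lower, and DESeq2 called none there. The fit of AhCre libraries alone called 2 higher (Klf4 and Hif1a) and 2 lower (Fos and Atf3) there, and limma-voom called 1 lower. Villin libraries alone and limma-voom each called 1 in Villin. When Villin KO 1 was left out, none was called in Villin.

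Other antimicrobial genes of the gut surface had 19 members tested. Duoxa2 and Duox2, which together make hydrogen peroxide at the epithelial surface, rose in Villin. Duoxa2 went from 33.1 to 508.9 CPM (log2 fold change 3.95, adjusted p = 0.0142) and Duox2 from 50.02 to 630.4 CPM (3.66, adjusted p = 0.0156). In AhCre the values were 2.81 (adjusted p = 0.636) and 2.41 (adjusted p = 0.779). Retnlb, a secreted resistin-like protein that kills bacteria, was called on the mean (4.84, adjusted p = 0.0446). AhCre WT averaged 0.112 CPM, under the floor, against 6.56 in AhCre KO, and Villin WT 3.64 CPM against 51.9. Nos2, nitric oxide synthase, fell in Villin (log2 fold change -2.50, adjusted p = 0.0210). With AhCre libraries alone 8 of the list were called higher and 2 lower in AhCre, and by limma-voom 7 and 1, against 0 by the shared fit and by DESeq2 (4 higher at an unadjusted p under 0.05). The median of the list was -0.64 in Villin, beside -0.18 over all genes. None of it was called in Villin when Villin KO 1 was left out.

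Markers of fetal-like and injured epithelium had 22 members tested, with 6 rising in Villin, 3 on the mean and none in AhCre (where 2 stood higher at an unadjusted p below 0.05 and DESeq2 called none). With AhCre libraries alone 3 were called higher and 2 lower in AhCre, and limma-voom called 2 higher. In Villin 4 rose with Villin libraries alone and 2 by limma-voom. Beside Il33, Krt23, a keratin, rose in Villin from 18.2 to 155.9 CPM (3.10, adjusted p = 0.00774). Ptgs2, a prostaglandin synthase, was called in Villin (adjusted p = 0.0157), at 0 counts in the 3 WT libraries and a mean of 4.33 CPM in KO. Leaving out Villin KO 1 left 2 genes of the list called in Villin.

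Tuft cells, the chemosensory cells that start the type 2 response, had 12 markers tested. All 12 rose in Villin and on the mean, where 3.33% and 0.972% of all genes tested were called higher. In AhCre none was called by the shared fit although all 12 were higher at an unadjusted p under 0.05, and DESeq2 called 9. All 12 rose in AhCre with AhCre libraries alone and by limma-voom, which called 7 in Villin. The medians were 4.30, 3.36 and 2.52. Avil, a villin-related actin regulator of tuft cells, rose from 9.04 to 269.6 CPM in Villin (log2 fold change 4.90, adjusted p = 0.00482). Chat, which makes acetylcholine, and the succinate receptor Sucnr1 gave 3.27 and 4.89 (adjusted p = 0.00994 and 0.00915). With Villin KO 1 left out, 6 of the 12 rose in Villin and 10 in AhCre.

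Summed tuft markers stood at 179.2 and 185.9 CPM in AhCre WT and at 1064 and 977.1 CPM in AhCre KO. Villin WT libraries held 109.8, 77.9 and 109.1 CPM of them, and Villin KO libraries 3499 and 501.0 CPM. Villin KO 1 was thus the highest library for both Sprr2a and tuft markers. AhCre WT libraries had more tuft marker CPM than Villin WT libraries and less Sprr2a. Fewer cells of a type and less RNA per cell cannot be told apart in bulk libraries, and the part of tuft cells in the Sprr2a result was not tested.

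Enterocyte markers summed to 34750, 21250 and 35450 CPM in Villin WT and 71260 and 47240 CPM in Villin KO, and 8 of 14 rose there, with Slc2a5 the first by p (log2 fold change 2.94, adjusted p = 0.00482). That number was 2 with Villin libraries alone and by limma-voom, and 1 when Villin KO 1 was left out. In AhCre the sums were 12000 and 10700 CPM in WT and 9604 and 9416 CPM in KO, with 0 of 14 called by the shared fit or DESeq2 and 2 lower at an unadjusted p under 0.05. The fit of those libraries alone called 1 higher and 5 lower, and limma-voom 1 and 4. The summed enterocyte markers thus stood lower in AhCre KO, where Sprr2a stood higher, and their part in the Villin result was not tested. Of 6 stem cell markers, Lgr5 and Axin2 fell in Villin (log2 fold changes -1.40 and -1.41, adjusted p = 0.0380 and 0.0320), and their values in AhCre were 0.28 and 0.23 (adjusted p = 1 for each). Neither was called with Villin libraries alone, by limma-voom or when Villin KO 1 was left out.

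In Villin 1 of 7 goblet cell markers rose (Clca1, 1.90, adjusted p = 0.0390), and 0 did with Villin libraries alone, by limma-voom or without Villin KO 1. In the AhCre-only fit 2 goblet markers were called higher and 2 lower in AhCre. Summed Paneth markers stood at 7269 and 6433 CPM in AhCre WT libraries and higher, at 12110 and 12870 CPM, in those of AhCre KO. The shared fit and DESeq2 called 0 of 6, with 0 at an unadjusted p under 0.05 in either driver, whereas 5 of 6 were called higher with AhCre libraries alone and 2 by limma-voom. In Villin the sums overlapped, at 1893 to 13640 CPM in WT and 3739 and 8766 CPM in KO. Paneth markers thus stood higher in AhCre KO together with Sprr2a, and their part in that result was not tested.

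Leukocyte markers summed to 37.3 to 478.2 CPM in Villin WT and to 321.9 and 1040 CPM in Villin KO, and stromal markers to 29.0 to 191.4 CPM and to 188.1 and 216.7 CPM. In AhCre both sums were lower in KO, at 156.1 and 176.7 against 209.1 and 212.8 CPM for leukocytes and at 76.8 and 78.8 against 164.7 and 168.5 CPM for stroma. Villin KO 2, the library with the most leukocyte RNA, had the lower Sprr2a of its pair. Of 9 stromal genes tested, 2 rose in Villin (Col1a1, 3.39, and Col3a1, 2.78, adjusted p = 0.00842 and 0.0180), and no leukocyte gene was called by the shared fit, while 3 passed an unadjusted p of 0.05 in Villin and DESeq2 called 1. With AhCre libraries alone 5 stromal genes were called lower, and 2 leukocyte genes higher and 4 lower. Their part in the Sprr2a result was not tested.

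**Figure D5:**
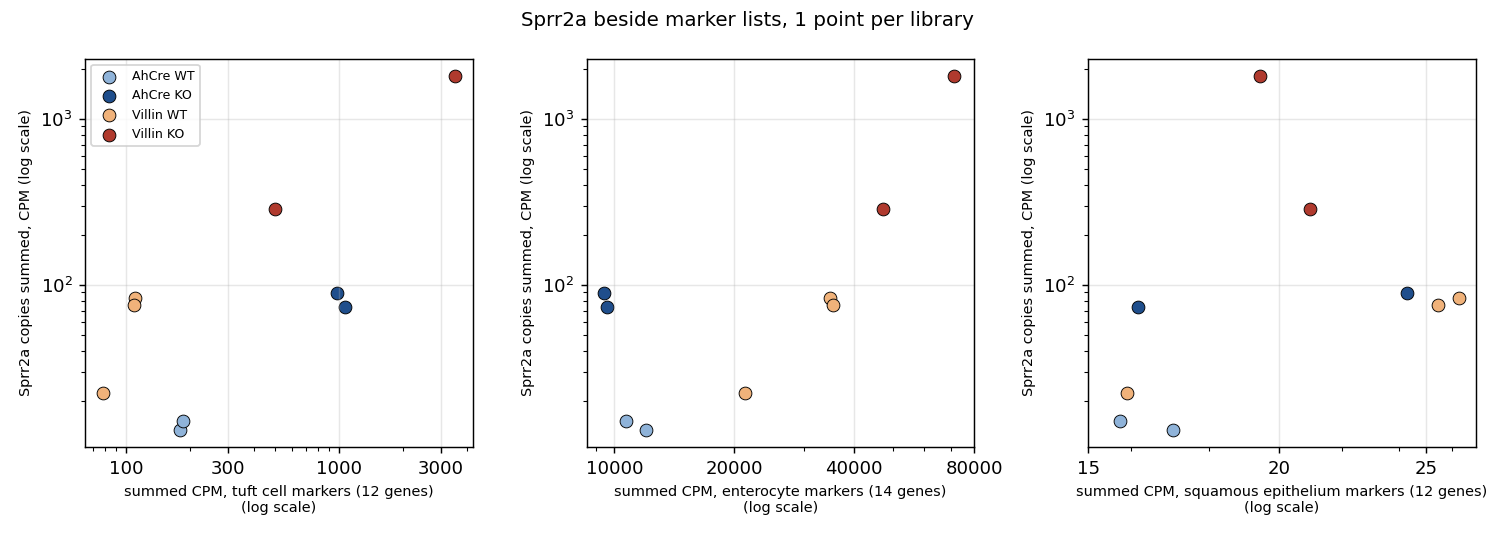
CPM of the summed Sprr2a copies against the summed CPM of tuft, enterocyte and squamous markers, both axes on log scales, 1 point per library coloured by group. Both KO groups lie to the right of their WT group for tuft markers, the AhCre KO points lie to the left of AhCre WT for enterocyte markers, and squamous markers stay between 15.7 and 26.2 CPM.

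The genes most like summed Sprr2a across the 9 libraries were found by Pearson's r of log2 CPM among 12688 candidates with a mean of at least 1 CPM. They were Duoxa2 (r = 0.983), Oxct1 (0.978), Gadd45g (0.978), Plekhs1 (0.975) and Tm4sf4 (0.971). Without Villin KO 1 these were 0.965, 0.948, 0.947, 0.940 and 0.932. Tm4sf4, a tetraspanin-like membrane protein, averaged 109.5 and 279.4 CPM in AhCre WT and KO and 299.2 and 1701 CPM in Villin WT and KO. Oxct1, an enzyme of ketone body use, averaged 102.1 and 211.5 CPM, and 197.5 and 698.2 CPM. The genes most like Sprr1a were Ext1 (0.955), Mkrn1 (0.955), Cdkn2b (0.942), Rogdi (0.941) and Tarbp2 (0.936), none of them in the first set. The points share the 4 groups and their depth, so these values describe the libraries and carry no test.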

How the data were processed

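The authors deposited 1 table of whole-number gene counts for every library, 9 in all. Per the submitters' processing notes, STAR 2.7, featureCounts, DESeq2 1.20 and the mm10 and GRCm38 genome builds were used, and their roles, the strand setting, the read length and the handling of reads with several matches were not given in the sources used here. Smart-seq2 carries no molecular identifiers and does not mark strand, so intervals and floors cover counting error only. All 55341 row names matched the GENCODE M21 annotation.

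Counts were filtered with filterByExpr (minimum count 10, smallest group 2 libraries), which left 16250 of 55341 genes, then scaled by TMM and fitted with edgeR 4.0.16 (quasi-likelihood F test, 1 mean for each of the 4 groups, all 9 libraries sharing 1 estimate of spread) in R 4.3.3. Benjamini-Hochberg adjustment ran over all genes tested, with a threshold of 0.05. For the summed Sprr2a value the 3 rows were replaced by their sum in the whole table. Alternatives were DESeq2 1.42.0, limma-voom (limma 3.58.1) with sample weights, other scaling and filters, 1 driver at a time, a replicate block and each library left out. A crossed block was added after seeing the data. Promoters came from RefSeq, of which all 7 members matched, and window uniqueness was counted over GENCODE M21 transcripts, not the genome.

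Genes named are all members, Pcgf6 and, from each list, up to 4 called genes by adjusted p or else the 2 most abundant, and the 5 most alike in pattern to summed Sprr2a and to Sprr1a, passing over other Sprr genes, Gm symbols with digits and symbols ending in Rik. Some genes that this rule names are not reported here. The members and lists were chosen with earlier results of these data known.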

Additional observations from a re-analysis of the deposited data

How the results depend on the processing

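Summed Sprr2a was higher in KO than in WT of both drivers under every alternative run, with log2 fold changes of 2.38 to 2.66 in AhCre and 2.26 to 4.90 in Villin when each library was left out. In AhCre it passed the threshold with no filter on low counts (2.56, adjusted p = 1.16e-06), with DESeq2 (2.51, 0.0300), with limma-voom (2.52, 0.000101) and with AhCre libraries alone (2.55, 8.49e-08), and missed it otherwise. In Villin it passed in all alternatives that kept every library, and missed it when Villin WT 1 (4.42) or Villin KO 1 (2.26) was left out. The mean of both effects ranged from 2.40 to 3.71 with a library left out, and missed the threshold when AhCre WT 1 (3.28), AhCre WT 2 (3.36) or else Villin WT 1 (3.47) was dropped. The difference between drivers ranged from -2.37 to 0.27 for summed Sprr2a, the last without Villin KO 1, from -2.39 to 0.25 for Sprr2a3, from -1.18 to 1.31 for Sprr2a2 and from -1.13 to 0.36 for Sprr2b. Sprr1a in Villin ranged from -0.94 to 0.32. The causes were not tested.

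Counts of called genes moved more. In AhCre 1 gene was called, against 137 with no filter, 73 with DESeq2, 911 with limma-voom, 1046 with 1 driver alone and 1 to 64 with a library left out. In Villin 1009 genes were called, against 1591, 1732, 138, 259 and 73 to 1949 in the same order. The mean of both effects called 190 genes, against 538 with no filter, 447 with DESeq2 and 2 to 757 with a library left out. The difference called 12 genes, against 340 with no filter, 378 with DESeq2, 144 with limma-voom and 0 to 415 with a library left out (1354 to 3003 at an unadjusted p under 0.05 where edgeR called 0). Among the fits that left out a library, the lowest Villin count came without Villin KO 1 and the lowest mean counts without either AhCre WT library, and the highest count of each comparison came without Villin KO 2.

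Whether replicate numbers pair the libraries could not be settled. The deviations of same-numbered libraries correlated at -0.107 in AhCre and at 0.061 and -0.216 in Villin. In a group of 2 libraries the deviations mirror each other, so the sign of these values turns with the numbering. With a replicate block, summed Sprr2a kept its calls, at 4.06 in Villin and 3.29 on the mean, 300 genes were called in Villin, and edgeR called 0 for the difference (2526 at an unadjusted p under 0.05). With a replicate block on crossed AhCre numbers, chosen after seeing the data, 46 genes were called in Villin, 48 on the mean and 0 for the difference (2754 unadjusted).

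Pcgf6 was lower in KO of both drivers under every alternative, and its Villin call held in 4 of 8 that kept every library and in 5 of 9 that left out a library. In AhCre, Pcgf6 passed in 2 of the 8 that kept every library. With the replicate block, the Villin calls of Pcgf6 (adjusted p = 0.0560), S100a9, Lgr5 and Axin2 were lost, and 3 enterocyte and 9 tuft markers rose in Villin.

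Depth limits Sprr1b and Sprr2d, which were under the floor of 3 counts in every library. Sprr2a1, with up to 9 counts, is limited by counts and by shared sequence, which were not told apart. Leaving out a library of a pair leaves a lone sample that is assumed to vary like the other groups.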
